A study of Mus musculus with 28 samples.

Results

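The H/ACA box small nucleolar RNAs (snoRNAs) of mouse embryonic fibroblasts (MEFs) were followed in RNA that came down with PKR, the double-stranded RNA-activated protein kinase. They were taken as every feature of the deposited tables whose Ensembl identifier carries a mouse symbol of Snora followed by a number, which gave 38 of 30210 features. The cells had been reconstituted with wild-type PKR (WT) or with PKR carrying a mutation in every one of the motifs through which it binds double-stranded RNA (RM), and had been mock treated or given 0.1 mM palmitic acid, a saturated fatty acid. Datasets A and B each held 3 libraries labelled as biological replicates in each of the 4 groups WT mock, WT palmitate, RM mock and RM palmitate. Dataset C held 1 library of each. The columns of dataset B carry a 2 hr mark whose meaning the labels do not give, and the labels name neither the MEF line nor whether a reconstituted culture was a clone. RNA was immunoprecipitated with PKR from cell lysate, fragmented and made into small RNA libraries. No input RNA or control precipitate was analysed here, so a member's abundance in the cells, its binding to PKR and its background in the precipitate cannot be told apart, nor can fewer cells and less RNA per cell. Values below are CPM, in datasets A and B counts over the library total after its correction by a TMM factor, which is estimated from the bulk of features, and fold changes are log2 differences with their standard errors (SE).

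H/ACA box snoRNAs fold into hairpins separated by a hinge, the H box, and followed by an ACA box close to the 3′ end. With dyskerin (Dkc1), Nop10, Nhp2 and Gar1 they form particles that turn chosen uridines of ribosomal and spliceosomal RNA into pseudouridine, the snoRNA pairing with the target on either side of the uridine. The Snora73 RNAs, also called U17 or E1, act instead in the cleavage of the ribosomal RNA precursor. In mammals most H/ACA snoRNAs are cut from introns of host genes, many of them genes for ribosomal proteins, translation factors or long noncoding RNAs. PKR binds double-stranded RNA through its RNA-binding motifs and, when activated, phosphorylates the initiation factor eIF2α.

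The sequences of all 38 members were found in the GENCODE M21 transcripts, and those of the members on which the results below turn are printed 5′ to 3′, with the match to the H box pattern ANANNA in the middle of the RNA and the ACA box in capitals. Positions are those of the deposited tables on mm9, while the letters come from GENCODE transcripts of GRCm38. Snora23 (chr7:117189878-117190061, plus strand) lies in an intron of Ipo7, Snora64 (chr17:24857717-24857850, plus strand) within Rps2 and Snora75 (chr1:88247744-88247876, minus strand) within Ncl, the nucleolin gene. They are shown because the first had the smallest p of all members in dataset B and the others are among the 5 with the highest level per length.
Snora23: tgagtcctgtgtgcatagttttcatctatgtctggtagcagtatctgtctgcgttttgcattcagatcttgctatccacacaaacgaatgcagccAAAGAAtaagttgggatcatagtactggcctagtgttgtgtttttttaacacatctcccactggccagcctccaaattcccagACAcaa
Snora64: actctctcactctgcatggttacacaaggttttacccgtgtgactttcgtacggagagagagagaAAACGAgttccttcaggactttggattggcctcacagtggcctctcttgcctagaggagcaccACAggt
Snora75: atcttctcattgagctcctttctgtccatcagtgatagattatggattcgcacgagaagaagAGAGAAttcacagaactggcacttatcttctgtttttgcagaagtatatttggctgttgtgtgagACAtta
Snora34 (chr15:98350147-98350284, minus strand) and Snora2b (chr15:98356777-98356913, minus strand) lie in introns of 1 gene, Kansl2, and share an exact run of 19 bases, agctgttggtttcaagcag, which starts at base 36 of Snora34 and at base 33 of Snora2b.
Snora34: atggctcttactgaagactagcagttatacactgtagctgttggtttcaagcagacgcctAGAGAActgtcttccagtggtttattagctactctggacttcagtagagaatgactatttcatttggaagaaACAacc
Snora2b: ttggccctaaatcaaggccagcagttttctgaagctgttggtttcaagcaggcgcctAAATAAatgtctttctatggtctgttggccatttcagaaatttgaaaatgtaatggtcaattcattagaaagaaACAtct
Snora73a (chr4:131908690-131908894, minus strand) and Snora73b (chr4:131908237-131908441, minus strand) lie in introns of Rcc1 and Snhg3 and are identical at 198 of 205 aligned bases (96.6%), yet their counts differed between libraries as described below. Snora28 (chr12:112779152-112779278, plus strand), within Eif5, is shown with them because it and Snora73a were among the members that 1 library of dataset B set apart.
Snora73a: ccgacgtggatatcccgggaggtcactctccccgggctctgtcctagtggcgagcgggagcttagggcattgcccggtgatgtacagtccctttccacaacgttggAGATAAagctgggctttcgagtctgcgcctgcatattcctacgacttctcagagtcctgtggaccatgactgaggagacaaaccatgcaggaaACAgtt
Snora73b: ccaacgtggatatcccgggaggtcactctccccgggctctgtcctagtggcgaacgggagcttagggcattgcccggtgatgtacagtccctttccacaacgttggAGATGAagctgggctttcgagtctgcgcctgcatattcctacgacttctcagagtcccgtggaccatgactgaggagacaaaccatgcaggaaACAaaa
Snora28: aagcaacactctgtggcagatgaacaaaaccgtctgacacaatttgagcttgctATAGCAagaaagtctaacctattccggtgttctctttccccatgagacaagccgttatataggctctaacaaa
The 38 RNAs were 121 to 205 bases long. The letters ACA stood exactly 3 bases before the 3′ end in 31 of 38 members (81.6%), in 0 of 98 C/D box snoRNAs, the other main class of snoRNA, and in 13 of 1383 genes of the snRNA class (0.940%). Snora28 had no ACA at that distance. ANANNA, searched on the RNA strand between 30.0% and 70.0% of the length, was present in 36 of 38 members (94.7%), in 59.2% of C/D box snoRNAs and in 80.04% of the snRNA class, so this short pattern alone marks the class weakly. With a like gene taken as one at least 90% identical over at least 80% of the member, 22 members had such a copy and 19 had one that is itself counted in the tables. Summed over counted copies, their mean CPM was 222% of the member's own for Snora73b, whose copy is Snora73a, 114% for Snora2b, 94.7% for Snora70, 58.1% for Snora65, 46.8% for Snora5c, 45.1% for Snora73a, 43.3% for Snora30, 40.3% for Snora26, 39.5% for Snora57 and 35.5% for Snora3, and at most 24.5% for any other. The counts of these 10 members are uncertain for this reason, since how reads that match several places were assigned is not given in the sources used here. Those of Snora16a, Snora17 and Snora43 are uncertain too. Their copies are not themselves counted, and for Snora16a and Snora43 the copy was 100% identical.

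By host, 11 members lay in ribosomal protein genes, 3 in translation factor genes, 13 in other protein-coding genes and 10 in noncoding host transcripts, and none was found for Snora57. Snora73a and Snora73b were placed with protein-coding Rcc1, though the noncoding Snhg3, which was not itself counted, also spans them. GENCODE M21 gave a host on the same strand for 35 members: 17 were intronic in every spanning transcript, and 18 also fell in an exon of at least 1 transcript, such as one that retains the intron. Total counts ran from 254762 to 8036622 per library in dataset A, 2204502 to 7122087 in B and 7462653 to 11658726 in C. Of 14 fibroblast markers 13 reached a mean of 1 CPM, while the summed CPM of endothelial, epithelial and blood cell markers stayed at or below 13.5 CPM in any library. WT mock replicate 1 of dataset B stood apart: its C/D box snoRNAs summed to 20 times the CPM of its H/ACA members, against 2.88 to 4.39 times in the other B libraries and 13.1 to 47.3 times in A. Counts of calls in the comparisons of B that include it are given with and without it below.

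Of the 38 members 37 were detected well enough to be tested. Snora35, in an intron of the serotonin receptor gene Htr2c, was listed at 0 counts in all libraries of datasets A and B except RM mock replicate 3 of A, at 0.148 CPM. On a scale of mean CPM per kb over both datasets, the highest members were Snora75 (1563), Snora61 in Snhg12 (1511), Snora28 (1358), Snora16a in Snhg12 (1186) and Snora64 (1114), and the lowest detected member was Snora5c in Tbrg4 (33.0). The order of these top members was not tested, and their libraries overlapped: Snora75 ranged from 40.9 to 280.3 CPM in B, and Snora61 from 50.4 to 297 CPM. Snora28, Snora68 and Snora73a had mean CPM 4.40, 3.28 and 1.85 times as high in A as in B, whereas Snora23 stood at 0.415 times, the lowest ratio of the members.

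In WT cells of dataset B palmitate raised nearly all H/ACA members. Their summed CPM was 996, 942 and 1101 in the WT mock libraries and 2188, 2593 and 3563 in the WT palmitate libraries. RM mock libraries already held 2509, 2805 and 2682 CPM, and RM palmitate libraries 3153, 4212 and 4489 CPM. The WT mock group was thus the lowest of the 4, with no overlap with any other group of dataset B. Scaled by total counts alone, without TMM factors, the sums were 1003 to 1224 CPM in WT mock, 2359 to 3675 CPM in WT palmitate, 2738 to 2918 CPM in RM mock and 2856 to 3447 CPM in RM palmitate. On that scale WT mock was again the lowest, while the RM groups overlapped. In dataset A the sums were 1871, 1849 and 2909 CPM for WT mock, 5240, 3347 and 1617 CPM for WT palmitate and 5112, 3028 and 2105 CPM for RM mock. They were 2523, 2062 and 2552 CPM for RM palmitate, and all 4 groups overlapped.

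**Figure D1:**
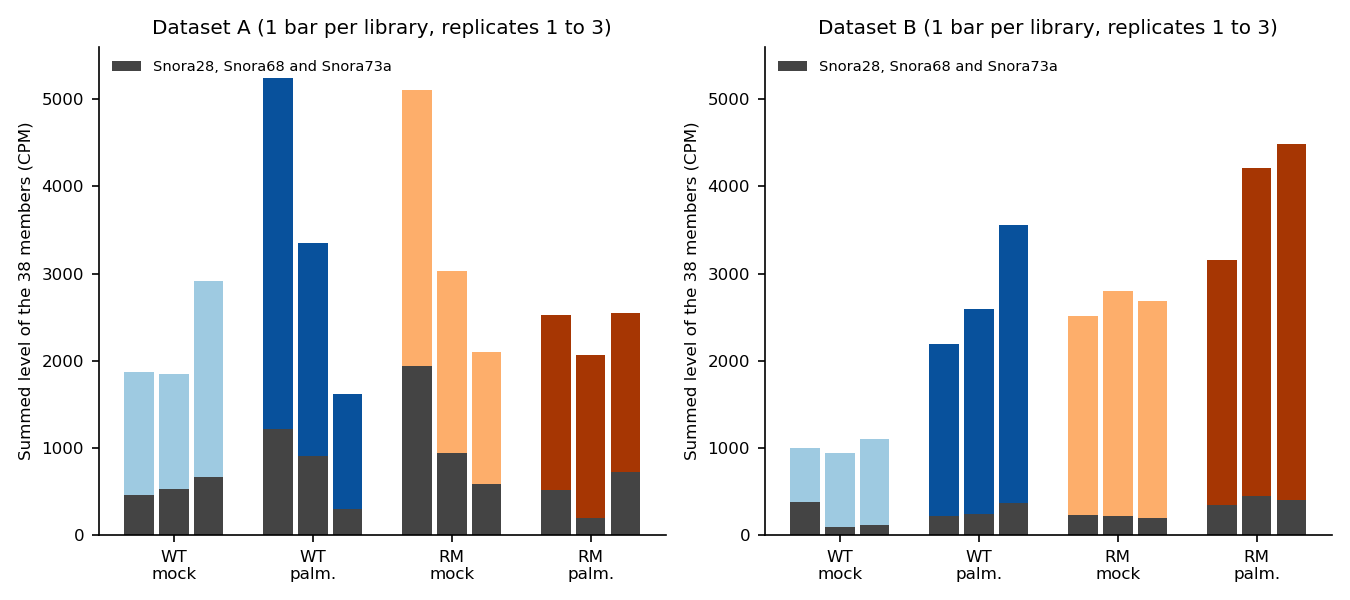
Stacked bars give the summed CPM of the 38 members in every library of datasets A and B, with Snora28, Snora68 and Snora73a together as the dark part. The WT mock bars of dataset B are the lowest of that dataset, at 942 to 1101 CPM, and the dark part makes up 38.1% of WT mock replicate 1.

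Tested gene by gene, 32 of 37 members rose in WT cells of dataset B with palmitate and 0 fell, at an adjusted p under 0.05 in edgeR's quasi-likelihood test over 12466 features, where 9.43% of all features rose. The members' median log2 fold change was 1.60 (range 0.26 to 2.09), that of all features -0.05. In 34 members every WT palmitate library lay above every WT mock library, which held for 19.6% of all features. Leaving out 1 library at a time left 26 to 33 members called, and 26 of the 32 calls held in every setting tried. The rise ran through all classes of host: 9 of 11 members in ribosomal protein genes rose (median 1.61), 2 of 3 in translation factor genes (1.38), 9 of 10 in noncoding hosts (1.66), 11 of 12 tested members in other protein-coding genes (1.59), and Snora57.

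Among members of ribosomal protein genes, Snora64 in Rps2 stood at 37.5, 45.1 and 59.7 CPM in the WT mock libraries and 121, 132 and 198 CPM in the WT palmitate libraries. All palmitate libraries were above the mock libraries (log2 fold change 1.67 ± 0.20 SE, edgeR adjusted p = 0.000274). Snora3, in Rpl27a, had 13.8, 18 and 17.2 CPM in the WT mock libraries and 37.4, 37 and 53.1 CPM in the WT palmitate libraries. The groups again did not overlap (log2 fold change 1.39 ± 0.17 SE, edgeR adjusted p = 0.000163). Snora33 in Rps12 was at 10.1, 18.6 and 21.6 CPM in the WT mock libraries and 51.3, 51.8 and 68.8 CPM in the WT palmitate libraries (log2 fold change 1.79 ± 0.23 SE, edgeR adjusted p = 0.000557). Snora62, known as E2, in Rpsa stood at 5.1, 13.4 and 18.6 CPM in the WT mock libraries and 34.1, 43.5 and 51.6 CPM in the WT palmitate libraries (log2 fold change 1.81 ± 0.36 SE, edgeR adjusted p = 0.0104) without overlap between the groups. Snora70, in Rpl10, was one of the rarest members, with 1.1, 3.04 and 3.68 CPM in the WT mock libraries and 5.6, 13.8 and 12 CPM in the WT palmitate libraries. Its rise (log2 fold change 2.0 ± 0.49 SE, edgeR adjusted p = 0.0207) was lost when WT mock replicate 1 or 2, or WT palmitate replicate 2 or 3, was left out. Snora21 in Rpl23 was called with 1 of the smallest changes, from 15.6, 23.1 and 24.2 CPM to 40.6, 53.7 and 52 CPM (log2 fold change 1.22 ± 0.23 SE, edgeR adjusted p = 0.00425).

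Members of other protein-coding hosts moved by like amounts. Snora23 in Ipo7, the gene of a nuclear import receptor, had 8.13, 11 and 11 CPM in the WT mock libraries and 25.8, 32.3 and 35.6 CPM in the WT palmitate libraries. The groups were well apart and the p was the smallest of all members (log2 fold change 1.64 ± 0.16 SE, edgeR adjusted p = 1.86e-05). Snora34 in Kansl2 stood at 31.4, 39.4 and 42.5 CPM in the WT mock libraries and 82.1, 96.9 and 143 CPM in the WT palmitate libraries (log2 fold change 1.51 ± 0.19 SE, edgeR adjusted p = 0.000287). Snora2b, its neighbour in another intron of that gene, had 2.07, 3.65 and 5.02 CPM in the WT mock libraries and 11.4, 14.1 and 17.4 CPM in the WT palmitate libraries (log2 fold change 2.01 ± 0.28 SE, edgeR adjusted p = 0.000328). Both RNAs thus separated the groups, at levels far apart. Snora20 in Tcp1, a chaperonin subunit gene, had 2.62, 7 and 6.19 CPM in the WT mock libraries and 15, 19.3 and 25.2 CPM in the WT palmitate libraries (log2 fold change 1.92 ± 0.29 SE, edgeR adjusted p = 0.000938). Snora75 in Ncl was at 40.9, 48.4 and 46.5 CPM in the WT mock libraries and 99.2, 159 and 272 CPM in the WT palmitate libraries (log2 fold change 1.96 ± 0.36 SE, edgeR adjusted p = 0.00716). Snora5c in Tbrg4 was low in every library, with 1.38, 3.04 and 2.51 CPM in the WT mock libraries and 6.56, 8.33 and 7.52 CPM in the WT palmitate libraries, and rose too (log2 fold change 1.69 ± 0.31 SE, edgeR adjusted p = 0.00216).

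In noncoding hosts, Snora78 in Snhg9 had the largest change. It had 1.65, 3.35 and 4.51 CPM in the WT mock libraries and 9.28, 16.7 and 14.5 CPM in the WT palmitate libraries (log2 fold change 2.09 ± 0.39 SE, edgeR adjusted p = 0.00418). Snhg9 lies across from Rps2 on the opposite strand, and dataset C, which was counted by strand, held 0 opposite-strand counts for Snora78. Snora74a, known as U19, in the lincRNA ENSMUSG00000090430 had 22.9, 33.2 and 49.5 CPM in the WT mock libraries and 96.6, 121 and 193 CPM in the WT palmitate libraries (log2 fold change 1.96 ± 0.33 SE, edgeR adjusted p = 0.00463). Snora61 in Snhg12 stood at 61.8, 50.4 and 73.4 CPM in the WT mock libraries and 147, 173 and 268 CPM in the WT palmitate libraries (log2 fold change 1.66 ± 0.21 SE, edgeR adjusted p = 0.000347). Its neighbour Snora16a in the same transcript was at 42.1, 91.5 and 91.1 CPM in the WT mock libraries and 159, 187 and 210.0 CPM in the WT palmitate libraries (log2 fold change 1.31 ± 0.30 SE, edgeR adjusted p = 0.0158), a call that was lost without WT palmitate replicate 3. Snora9 in Snhg15 had the smallest change of the called members, from 3.86, 6.55 and 8.03 CPM to 13.1, 12.2 and 14.9 CPM (log2 fold change 1.14 ± 0.26 SE, edgeR adjusted p = 0.00754).

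Among the 5 members that were not called, Snora28, Snora68 and Snora73a shared a pattern. Snora73a stood at 221, 46.1 and 64.7 CPM in the WT mock libraries and 115, 141 and 215 CPM in the WT palmitate libraries. Only WT mock replicate 1 was high, above every palmitate library, and the fit gave 0.5 ± 0.53 SE (edgeR adjusted p = 0.564). Snora28 had 96.1, 27.1 and 24.7 CPM in the WT mock libraries and 52.3, 47.4 and 77.5 CPM in the WT palmitate libraries (log2 fold change 0.26 ± 0.49 SE, edgeR adjusted p = 0.76), and Snora68 had 62.5, 15.7 and 22.1 CPM in the WT mock libraries and 54.1, 49.5 and 77.7 CPM in the WT palmitate libraries (log2 fold change 0.85 ± 0.46 SE, edgeR adjusted p = 0.249). These RNAs made up 38.1% of the members' summed CPM in WT mock replicate 1, against 9.44 and 10.1% in WT mock replicates 2 and 3. Without that library the edgeR values were 1.20 ± 0.19 for Snora28 (adjusted p = 0.00124), 1.7 ± 0.23 for Snora68 (adjusted p = 0.000886) and 1.51 ± 0.25 for Snora73a (adjusted p = 0.00385). In that fit 33 members were called, beside 7.51% of all features higher. In dataset A the share of these 3 RNAs was 9.2 to 38%. Snora73b, nearly identical in sequence to Snora73a, did not share the high value: it had 46.6, 39.3 and 41.6 CPM in the WT mock libraries and 94.5, 127 and 166 CPM in the WT palmitate libraries and rose (log2 fold change 1.6 ± 0.21 SE, edgeR adjusted p = 0.000655). The other uncalled members were Snora43 in the lincRNA ENSMUSG00000091299, with 12.8, 14.2 and 11.5 CPM in the WT mock libraries and 19.7, 18.5 and 29.1 CPM in the WT palmitate libraries (log2 fold change 0.81 ± 0.42 SE, edgeR adjusted p = 0.226), and Snora69 in Rpl39, with 2.34, 6.85 and 6.69 CPM in the WT mock libraries and 11.5, 10.4 and 13.4 CPM in the WT palmitate libraries (log2 fold change 1.18 ± 0.41 SE, edgeR adjusted p = 0.0779).

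**Figure D2:**
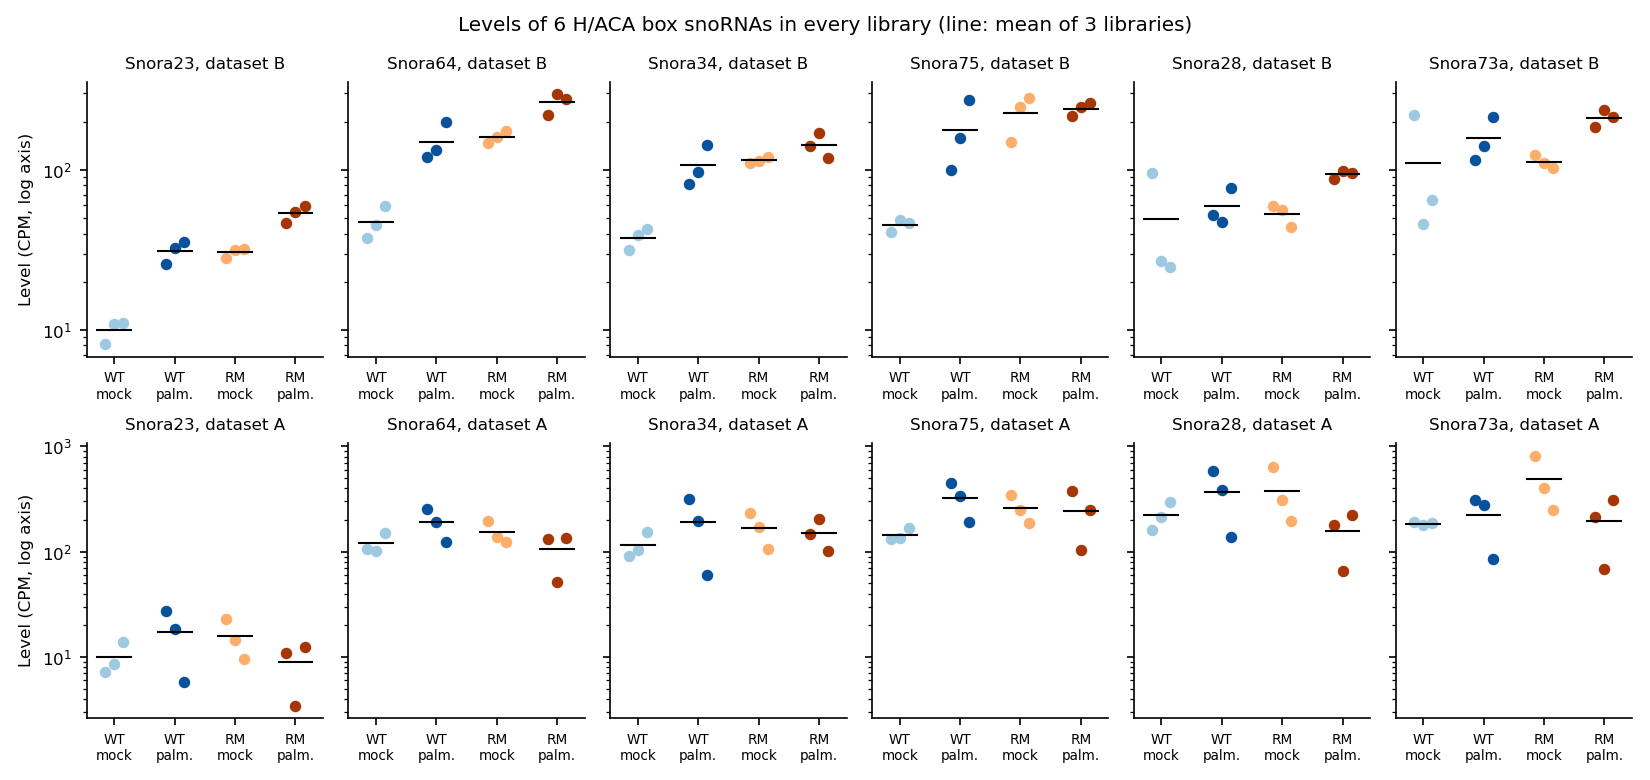
Points give the CPM (log axis) of Snora23, Snora64, Snora34, Snora75, Snora28 and Snora73a in every library of dataset B (top row) and dataset A (bottom row), with a line at the mean of the 3 libraries of each group. Snora23, Snora64, Snora34 and Snora75 are lowest in the WT mock group of B, whereas Snora28 and Snora73a have 1 high WT mock library there, at 96.1 and 221 CPM.

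In RM cells of dataset B fewer members passed the test. Palmitate raised 7 of 37 members and lowered 0, where 5.08% of all features rose, with a member median of 0.65. In 22 members all RM palmitate libraries lay above all RM mock libraries, against 15.6% of all features. Snora23 went from 28, 31.5 and 32.2 CPM in RM mock to 46.7, 54.3 and 59.5 CPM in RM palmitate, without overlap (log2 fold change 0.8 ± 0.15 SE, edgeR adjusted p = 0.00919). Snora73b had 95.3, 73.7 and 65.7 CPM in RM mock and 147, 160.2 and 222 CPM in RM palmitate (log2 fold change 1.16 ± 0.21 SE, edgeR adjusted p = 0.0101). The others were Snora3 (34 to 44 CPM in RM mock, 58.5 to 75.8 CPM in RM palmitate), Snora36b in Rab3gap2 (7.37 to 9.04 CPM in RM mock, 13.2 to 30.3 CPM in RM palmitate), Snora81 in Eif4a2 (35.2 to 45.3 CPM in RM mock, 67.1 to 87 CPM in RM palmitate), Snora64 (147 to 176 CPM in RM mock, 221 to 298 CPM in RM palmitate) and Snora33 (40.9 to 48.7 CPM in RM mock, 64.5 to 86.3 CPM in RM palmitate). Their edgeR adjusted p ran from 0.0169 to 0.0487, and no member's groups overlapped. At the other end, Snora24 in Snhg8, Snora74a and Snora75 had log2 fold changes of -0.07, -0.02 and 0.10. Snora75 was at 149.5, 247 and 280.3 CPM in RM mock and 217, 247 and 260.0 CPM in RM palmitate, so the groups overlapped. None of the 7 calls held in every setting: without RM mock replicates 1, 2 or 3 they numbered 2, 1 and 4, without RM palmitate replicates 1, 2 or 3 they numbered 18, 2 and 2, and with total counts instead of TMM scaling 3. They numbered 14, beside 7.79% of all features higher, without WT mock replicate 1, which enters this comparison only through the shared estimate of spread.

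Between the PKR forms, mock-treated WT libraries of dataset B held less of the members than mock-treated RM libraries. The same WT mock libraries served in the WT palmitate comparison, so these results are not independent. A difference of PKR form cannot be told apart from one between the reconstituted cultures. Lower in WT were 28 of 37 members and higher 0, with a median log2 difference of -1.34, while 7.88% of all features were lower. All WT libraries lay below all RM libraries for 34 members, against 18.6% of all features. Snora23 was at 8.13, 11 and 11 CPM in WT and 28, 31.5 and 32.2 CPM in RM (log2 fold change -1.61 ± 0.16 SE, edgeR adjusted p = 2.78e-05). Snora34 stood at 31.4, 39.4 and 42.5 CPM in WT and 110.1, 114 and 121 CPM in RM (log2 fold change -1.61 ± 0.19 SE, edgeR adjusted p = 0.000237). Snora64 was at 37.5, 45.1 and 59.7 CPM in WT and 147, 160.0 and 176 CPM in RM (log2 fold change -1.76 ± 0.20 SE, edgeR adjusted p = 0.000239). Each of these separated the genotypes. The widest differences were those of Snora75 (-2.31 ± 0.36 SE) and Snora24 (-2.19 ± 0.31 SE). Snora28, Snora43, Snora44, Snora57, Snora68, Snora69, Snora70, Snora73a and Snora78 were not called. Without WT mock replicate 1, 30 members were lower, beside 6.69% of all features, and 21 of the 28 calls held in every setting.

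After palmitate the genotypes of dataset B lay closer: 5 of 37 members were lower in WT and 0 higher, beside 4.2% of all features lower, with a median of -0.45. WT palmitate lay wholly below RM palmitate for 9 members, against 14.7% of all features. Snora23 was at 25.8, 32.3 and 35.6 CPM in WT palmitate and 46.7, 54.3 and 59.5 CPM in RM palmitate (log2 fold change -0.77 ± 0.16 SE, edgeR adjusted p = 0.012). Snora47 in Zbed3 had 21, 20.8 and 31.9 CPM in WT palmitate and 36.1, 51 and 56 CPM in RM palmitate (log2 fold change -0.93 ± 0.22 SE, edgeR adjusted p = 0.0219). Snora3 (-0.7 ± 0.17 SE), Snora64 (-0.82 ± 0.20 SE) and Snora36b (-1.17 ± 0.30 SE) were the others. No call held throughout: 0 members passed without WT palmitate replicate 1, RM palmitate replicate 2 or RM palmitate replicate 3, 1 without WT palmitate replicate 2, and 8 without WT palmitate replicate 3 or RM palmitate replicate 1. Leaving out WT mock replicate 1, again only part of the spread, let 9 pass, beside 6.3% of all features lower. With total counts in place of TMM scaling 2 passed, the members' median was -0.06 and that of all features shifted to 0.36.

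Whether the palmitate response itself differed by genotype was tested as an interaction, the WT change less the RM change. In dataset B edgeR called 0 of 37 members and 0% of all features. Without adjustment 22 members had p under 0.05, beside 16.1% of all features, and the members' median was 0.94. EdgeR also called 0 members without WT mock replicate 1, with 23 at an unadjusted p under 0.05. The smallest p values were those of Snora34 (1.19 ± 0.26 SE, edgeR adjusted p = 0.0898), Snora2b (1.59 ± 0.39 SE, adjusted p = 0.102) and Snora74a (1.98 ± 0.45 SE, adjusted p = 0.12). Snora74a had 118, 169.8 and 182 CPM in RM mock and 145, 159 and 159.7 CPM in RM palmitate, and Snora2b had 11, 11.5 and 11.3 CPM in RM mock and 10.9, 20.5 and 15.2 CPM in RM palmitate. Snora34 was at 110.1, 114 and 121 CPM in RM mock and 141, 169.6 and 118 CPM in RM palmitate. DESeq2 called 7 members in the same comparison: Snora75, Snora62, Snora65, Snora34, Snora74a, Snora2b and Snora24, beside 2.81% of all features. A larger number of members raised in WT than in RM cells is therefore not by itself a difference shown by the main edgeR fit. With no filter on low counts, total counts or a replicate block edgeR did call members, as given at the end.

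**Figure D3:**
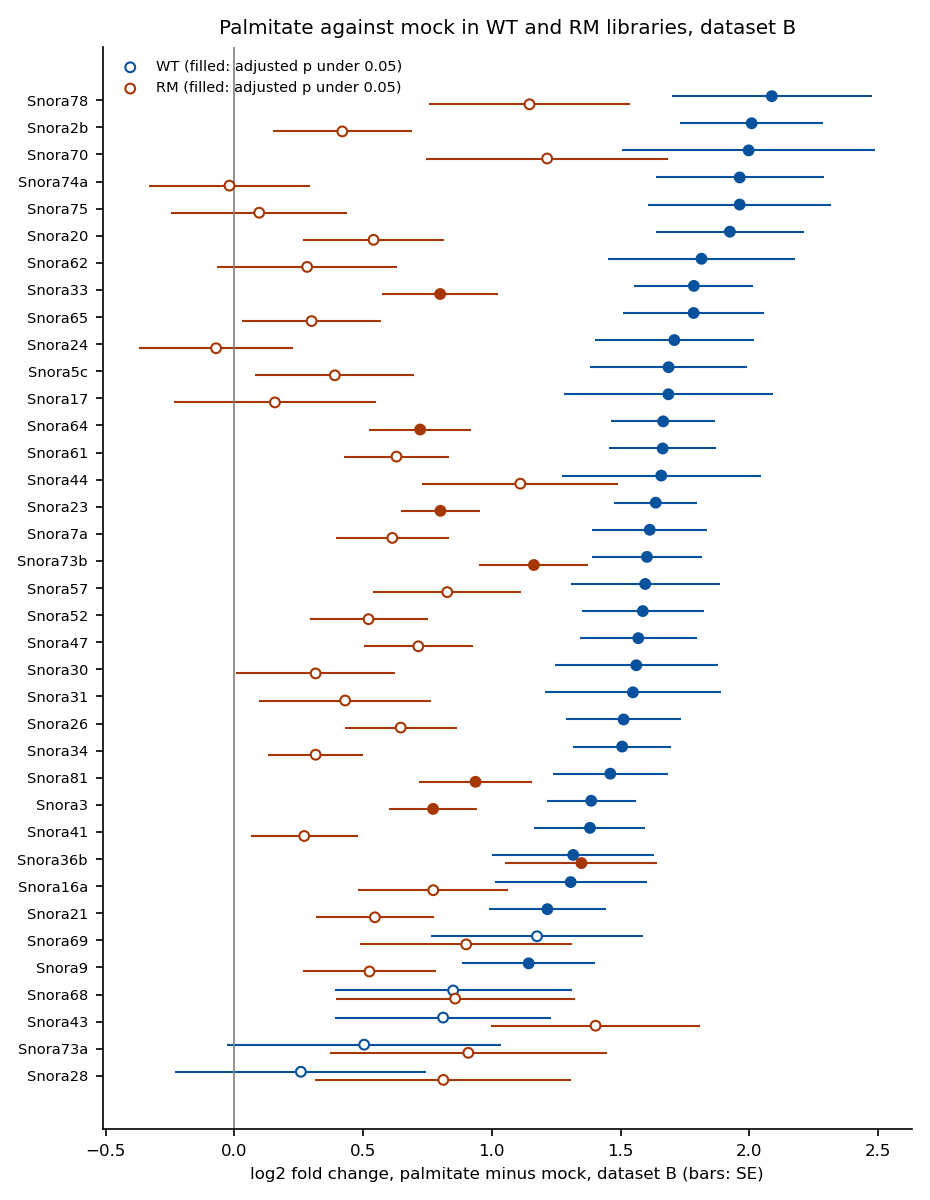
Log2 fold changes with palmitate in dataset B, with SE bars, are drawn for 37 members in WT (blue) and RM cells (brown), filled where the edgeR adjusted p was under 0.05. WT values lie between 0.26 and 2.09, with 32 filled points, and 7 RM points are filled.

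Dataset A, with the same 4 groups, gave no called member. With palmitate in WT cells edgeR called 0 of 37 members and 0.335% of all features. At an unadjusted p under 0.05 there were 9 members beside 11.8% of all features, and DESeq2 called 0. All 37 members had a positive log2 fold change (median 0.72, range 0.16 to 1.55, all features -0.03), but in only 2 did the groups not overlap, against 7.66% of all features. Snora5c had 0.552, 1.39 and 2.8 CPM as WT mock, 6.22, 3.05 and 3.77 CPM as WT palmitate, 5.16, 2.75 and 2.82 CPM as RM mock and 3.22, 3.45 and 3.17 CPM as RM palmitate. The WT groups did not overlap (log2 fold change 1.55 ± 0.46 SE, edgeR adjusted p = 0.18). Snora36b in Rab3gap2 had 4.69, 2.31 and 3.73 CPM in WT mock and 12, 7.84 and 3.09 CPM in WT palmitate (log2 fold change 1.21 ± 0.40 SE, edgeR adjusted p = 0.224). Snora75 was at 131, 135 and 169 CPM in WT mock and 452, 336 and 191 CPM in WT palmitate (log2 fold change 1.17 ± 0.42 SE, edgeR adjusted p = 0.261). Snora23 stood at 7.18, 8.56 and 14 CPM as WT mock, 27.5, 18.5 and 5.83 CPM as WT palmitate, 23.1, 14.6 and 9.64 CPM as RM mock and 10.9, 3.45 and 12.6 CPM as RM palmitate. WT palmitate replicate 1 was high and replicate 3 low among these, as for Snora64 (107, 101 and 151 CPM as WT mock, 254, 190.2 and 125 CPM as WT palmitate, 197, 139 and 124 CPM as RM mock and 132, 51.7 and 135 CPM as RM palmitate). Without WT palmitate replicate 1 the median was 0.24. With no filter on low counts 12 members passed, a count for which the share of all features is not given here.

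The other comparisons of dataset A were alike in having no edgeR call among members, and DESeq2 called 0 in each. For RM palmitate against RM mock 0.477% of all features were called, and 2 members had an unadjusted p under 0.05 beside 13.4% of all features. The smallest p values belonged to Snora73a (818, 401 and 248 CPM in RM mock, 215, 69 and 307 CPM in RM palmitate, log2 -1.27 ± 0.54 SE), Snora28 (629.5, 308 and 196 CPM and 179.9, 65.5 and 223 CPM, log2 -1.23 ± 0.54 SE) and Snora68 (496, 229 and 141 CPM and 116, 55.2 and 193 CPM, log2 -1.18 ± 0.56 SE). For WT against RM mock 3.74% of all features were called, with 2 members at an unadjusted p under 0.05 beside 18.4%. Snora5c (-1.21 ± 0.45 SE), Snora73a (-1.4 ± 0.54 SE, 177 to 190.0 CPM in WT, 248 to 818 CPM in RM) and Snora75 (-0.84 ± 0.42 SE) led there. WT against RM palmitate called 3.43% of all features and had 10 members at an unadjusted p under 0.05 beside 18.1%. Snora3 stood at 67.8, 33.1 and 25.7 CPM in WT palmitate and 19.2, 6.9 and 18.1 CPM in RM palmitate (log2 fold change 1.28 ± 0.44 SE, edgeR adjusted p = 0.143). Snora16a (109.8 to 335 CPM in WT, 86.2 to 106 CPM in RM, log2 1.03 ± 0.44 SE) and Snora78 (5.15 to 13.1 CPM in WT, 4.42 to 6.9 CPM in RM, log2 0.95 ± 0.41 SE) followed. RM palmitate replicate 2 of A was the shallowest library of all, with 254762 counts in total and 598 over all members. Its CPM of rare members, such as Snora5c, Snora23, Snora3 and Snora78, therefore rest on very few reads. The interaction in A called 0% of all features, and 12 members had an unadjusted p under 0.05 beside 4.14% of all features, led by Snora5c (1.7 ± 0.60 SE), Snora36b (1.48 ± 0.54 SE) and Snora28 (1.95 ± 0.75 SE), each at an edgeR adjusted p of 0.981.

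Fitted together over the 24 libraries of datasets A and B, the mean WT palmitate change was called higher in 27 of 37 members and lower in 0, where 6.04% of all features were higher, with a median of 1.18. Snora5c (log2 fold change 1.63 ± 0.28 SE, edgeR adjusted p = 0.000476), Snora64 (log2 fold change 1.18 ± 0.21 SE, edgeR adjusted p = 0.00109) and Snora75 (log2 fold change 1.58 ± 0.29 SE, edgeR adjusted p = 0.00217) had the smallest p values. Of the 27 calls 18 held in every setting, and without WT mock replicate 1 of B 19 members were called. For the RM palmitate change edgeR and DESeq2 called 0 members, while edgeR called 9.04% of all features. Only 1 member had an unadjusted p under 0.05, beside 24.8% of all features, and Snora36b (0.54 ± 0.26 SE), Snora41 (0.35 ± 0.17 SE) and Snora78 (0.55 ± 0.32 SE) had the smallest p values. The joint interaction called 0% of all features with edgeR, with 25 members at an unadjusted p under 0.05 beside 10.5% of all features and a median of 1.01. Snora5c (1.51 ± 0.38 SE, edgeR adjusted p = 0.259), Snora75 (1.56 ± 0.41 SE, adjusted p = 0.275) and Snora64 (1.04 ± 0.30 SE, adjusted p = 0.286) led, and DESeq2 called Snora75 alone, beside 0.355% of all features.

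The WT palmitate change of B less that of A was called in 0 members by edgeR and by DESeq2, beside 0.189% of all features. At an unadjusted p under 0.05 there were 7 members and 14.4% of all features. Snora65 in Rpl12 had 10.5, 16.9 and 21.6 CPM in the WT mock libraries and 38.5, 72.1 and 58 CPM in the WT palmitate libraries in B, against 39.5, 39.1 and 79.3 CPM and 95.9, 55.9 and 36.4 CPM in A (difference of log2 changes 1.46 ± 0.54 SE, edgeR adjusted p = 0.22), and its counts are uncertain because of the near copies. Snora7a in Rpl32 (1.27 ± 0.49 SE) and Snora41 in Eef1b2 (0.92 ± 0.37 SE) followed. In B Snora7a lay at 14.2 to 23.7 CPM in WT mock and 45.3 to 68.2 CPM in WT palmitate, and Snora41 at 3.18 to 4.11 CPM and 9.6 to 10.4 CPM. For the RM change 0 members were called by both tools, beside 0.00788% of all features, and 17 members had an unadjusted p under 0.05 beside 13.3% of all features. Snora36b (1.6 ± 0.52 SE), Snora64 (1.17 ± 0.42 SE) and Snora73b (1.94 ± 0.68 SE) had the smallest p values there. The edgeR calls in B and their absence in A are thus not shown to differ.

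H/ACA snoRNAs are in general cut from host introns, so the hosts' own counts were read beside the members'. In 30 pairs, with 27 host features tested, both member and host were in the tables. For WT palmitate in dataset B 4 of 27 hosts rose and 1 fell, beside 9.43% of all features higher and 6.12% lower, with a median host log2 fold change of 0.03. When WT mock replicate 1 was left out, 3 rose and 1 fell, beside 7.51% of all features higher and 3.22% lower. The hosts that rose were Kansl2 (0.59 ± 0.14 SE, edgeR adjusted p = 0.0114), Srcap (0.68 ± 0.13 SE), Tbrg4 (0.58 ± 0.17 SE) and the lincRNA ENSMUSG00000091299 (1.52 ± 0.36 SE), and Rpl39 fell (-0.56 ± 0.14 SE). Rps2, the host of Snora64, was at 41.3, 45.5 and 40.5 CPM in WT mock and 36.5, 38.3 and 32.6 CPM in WT palmitate (-0.25 ± 0.18 SE, edgeR adjusted p = 0.37), with every palmitate library below every mock library, opposite to the snoRNA but not called. Ipo7, the host of Snora23, stood at 248, 217 and 211 CPM in WT mock and 248, 221 and 226 CPM in WT palmitate (0.04 ± 0.15 SE). Ncl, the host of Snora75, had 485, 510.3 and 554 CPM in WT mock and 567, 612 and 537 CPM in WT palmitate (0.15 ± 0.15 SE).

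The log2 ratio of member to host, on CPM + 0.5, was higher with palmitate by a median of 1.44 over the 30 pairs in WT cells of B (range -0.785 to 2.29). In 25 pairs every palmitate library had a higher ratio than every mock library and in 0 a lower one, where the CPM of 19.6% of all features separated in that direction. Without WT mock replicate 1 there were 28 such pairs. With 3 libraries a group the exact 2-sided permutation test of a pair cannot go below p = 0.1, so no pair could pass alone. The largest change was that of Snora70 to Rpl10, at -3.86 ± 1.18 (SD, n = 3) in mock and -1.57 ± 0.56 in palmitate libraries. Snora20 to Tcp1 stood at -6.13 ± 0.84 (SD, n = 3) in mock and -4.03 ± 0.36 in palmitate libraries, and Snora64 to Rps2 at 0.13 ± 0.37 (SD, n = 3) in mock and 2.02 ± 0.49 in palmitate libraries. Snora23 to Ipo7 was -4.43 ± 0.36 (SD, n = 3) in mock and -2.88 ± 0.32 in palmitate libraries. For the 2 members of ENSMUSG00000091299, a host that itself rose, the ratio changed little or was lower with palmitate: Snora17 to its host was -0.49 ± 0.23 (SD, n = 3) in mock and -0.26 ± 0.02 in palmitate libraries, and Snora43 -2.07 ± 0.63 (SD, n = 3) in mock and -2.85 ± 0.17 in palmitate libraries. In dataset A 1 of 30 pairs, Snora81 to Eif4a2, separated the groups, the median difference was 0.535, and 0 hosts were called. Reads of a member may also have been counted in a host exon where a transcript retains the intron.

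**Figure D4:**
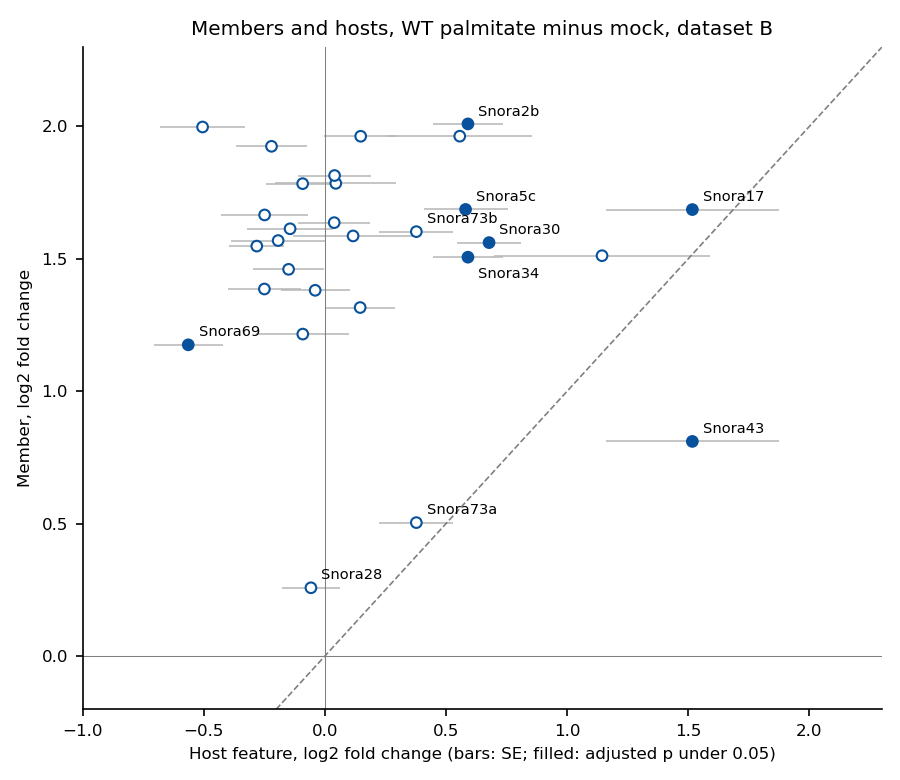
Each point is a member and its host (the pair of Snora68 is not drawn), with the host's log2 fold change with palmitate in WT cells of dataset B on the horizontal axis, the member's on the vertical axis, and a dashed line where both are equal. Most members lie above the line. The median change was 0.03 over the 27 tested hosts and 1.60 over all 37 tested members, including those not drawn.

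With palmitate in RM cells of B 3 of 27 hosts rose and 0 fell, beside 5.08% of all features higher. Rps2 rose (1.29 ± 0.19 SE, edgeR adjusted p = 0.00157), from 36.2, 26.1 and 30.2 CPM in RM mock to 53.1, 76.5 and 99.7 CPM in RM palmitate, as did Rpl27a (0.57 ± 0.16 SE) and Tpt1 (0.43 ± 0.12 SE). Snora64 and Snora3, in Rps2 and Rpl27a, were called in the same comparison, and Snora31, in Tpt1, was not (log2 fold change 0.43 ± 0.33 SE, edgeR adjusted p = 0.446). In mock-treated cells 6 of 27 hosts were called, beside 14.1% of all features. Rpl10, Tpt1 and Rpl39 were higher in WT than in RM, and Kansl2, Srcap and ENSMUSG00000091299 were lower. The counts were 1 higher and 3 lower without WT mock replicate 1, beside 4.73% of all features higher and 6.69% lower.

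Genes for proteins of the H/ACA particle and of its assembly, with others for proteins of RNA ends and Cajal bodies, were taken from a list of 18, of which 17 were in the tables. Their values are RNA counts in the PKR precipitate, not protein levels. For WT palmitate in B 3 of 17 rose and 0 fell, beside 9.43% of all features higher: Gar1, a core protein (0.9 ± 0.26 SE, edgeR adjusted p = 0.0284), and Nolc1 (0.53 ± 0.14 SE) and Tcof1 (0.53 ± 0.16 SE), nucleolar phosphoproteins. Without WT mock replicate 1, 2 of 17 rose, beside 7.51% of all features, and 0 of the 4 core protein genes were called. Fitted over both datasets 3 of 17 rose in WT cells, beside 6.04% of all features. In RM cells 3 of 17 rose (Nolc1, Tent4b and Znhit6), beside 5.95% of all features. Gar1 in WT cells was not called in that fit (0.82 ± 0.32 SE, edgeR adjusted p = 0.0994). In WT cells of B the RNAs of the other core proteins were not called, with Dkc1 at 0.03 ± 0.14 SE, Nhp2 at 0.03 ± 0.17 SE and Nop10 at -0.45 ± 0.17 SE. Tcof1 was the 1 gene of 17 that was lower in WT than RM mock of B (-0.83 ± 0.16 SE), beside 7.88% of all features. In RM cells of B edgeR called 0 of 17 with palmitate (3 at an unadjusted p under 0.05, beside 26.9% of all features). In WT cells of A it called 0 of 15 (2 at an unadjusted p under 0.05, beside 11.8%). Lower in WT than RM palmitate of A was 1 of 15 (edgeR adjusted p = 0.0405), beside 0.936% of all features.

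Other nuclear RNAs moved beside the members. For WT palmitate in B 28 of 70 C/D box snoRNAs rose, with a median of 0.87, and 3 of 9 small Cajal body RNAs, beside 9.43% of all features. Without WT mock replicate 1, a setting chosen for these classes after seeing the data, 51 of 70 C/D box snoRNAs rose, with a median of 1.45, and 4 of 9 small Cajal body RNAs, beside 7.51% of all features. In that fit 33 of 37 H/ACA members rose, with a median of 1.44. The long nuclear RNAs Malat1 and Neat1 had log2 fold changes of 2.20 (edgeR adjusted p = 0.00806) and 2.33 (adjusted p = 0.00661), and in mock-treated cells the WT minus RM differences were -2.11 and -2.16. In WT cells of A their palmitate changes were -0.09 and -0.13. The part of nuclear RNA in general in the members' changes was not tested.

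Dataset C, with 1 library a group and therefore no test, is given as CPM of total counts with exact intervals for counting error only. The members held 0.0498% of the counts of the WT mock library, 0.0647% of the WT palmitate library, 0.251% of the RM mock library and 0.15% of the RM palmitate library. By this share of total counts WT mock was the lowest, and the RM palmitate library held less than RM mock. These shares are not scaled to the bulk of features as the TMM values of B are. Against WT palmitate and against RM mock, the members of WT mock stood near the bulk of features, as the medians below show. The median palmitate to mock ratio in WT was 1.20 over 37 members and 1.21 over all 12306 features, with 6 members more than 2-fold higher beside 12.2% of all features. In RM the member median was 0.526 while that of all features was 1.14. More than 2-fold lower there were 15 members, beside 3.68% of all features, and only Snora41 was above 1 (1.34). WT stood more than 2-fold below RM mock for 36 members, but so did 89.6% of all features (medians 0.192 and 0.194), so the members' share is near that of all features. In the palmitate libraries 19 members were more than 2-fold lower in WT, beside 87.2% of all features, with medians of 0.493 and 0.206.

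Snora75 was at 34.7 CPM (WT mock), 51.8 CPM (WT palmitate), 212 CPM (RM mock) and 174 CPM (RM palmitate). Snora64 stood at 28.1 CPM (WT mock), 32.2 CPM (WT palmitate), 132 CPM (RM mock) and 77.3 CPM (RM palmitate). Snora23 was at 4.29 CPM (WT mock), 3.49 CPM (WT palmitate), 17.7 CPM (RM mock) and 9.18 CPM (RM palmitate), with a WT palmitate to mock ratio of 0.814, 95% interval 0.469 to 1.4. These members were highest in RM mock, and the WT interval of Snora23 included 1. Snora81 had the lowest palmitate to mock ratio in RM cells (0.344, 95% interval 0.291 to 0.404). Snora5c had 0.804 CPM (WT mock), 1.94 CPM (WT palmitate), 7.72 CPM (RM mock) and 3.77 CPM (RM palmitate). Among hosts, the RM palmitate to mock ratio was 1.15 for Rps2, 1.48 for Ipo7, 0.975 for Ncl, 1.02 for Rcc1 and 1.04 for Kansl2. Each was above the ratio of a member within it: Snora64 (0.587), Snora23 (0.518), Snora75 (0.818), Snora73a (0.65) and Snora34 (0.807). The ratios of other hosts are not given here, and some of their members stood near or above 1, such as Snora43 (0.992) and Snora41 (1.34). Dataset C also gave counts by strand: of 51560 member counts 0.00388% lay on the opposite strand, against 0.702% of 36970784 counts over all features. In datasets A and B the strand used in counting is not given in the sources used here.

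**Figure D5:**
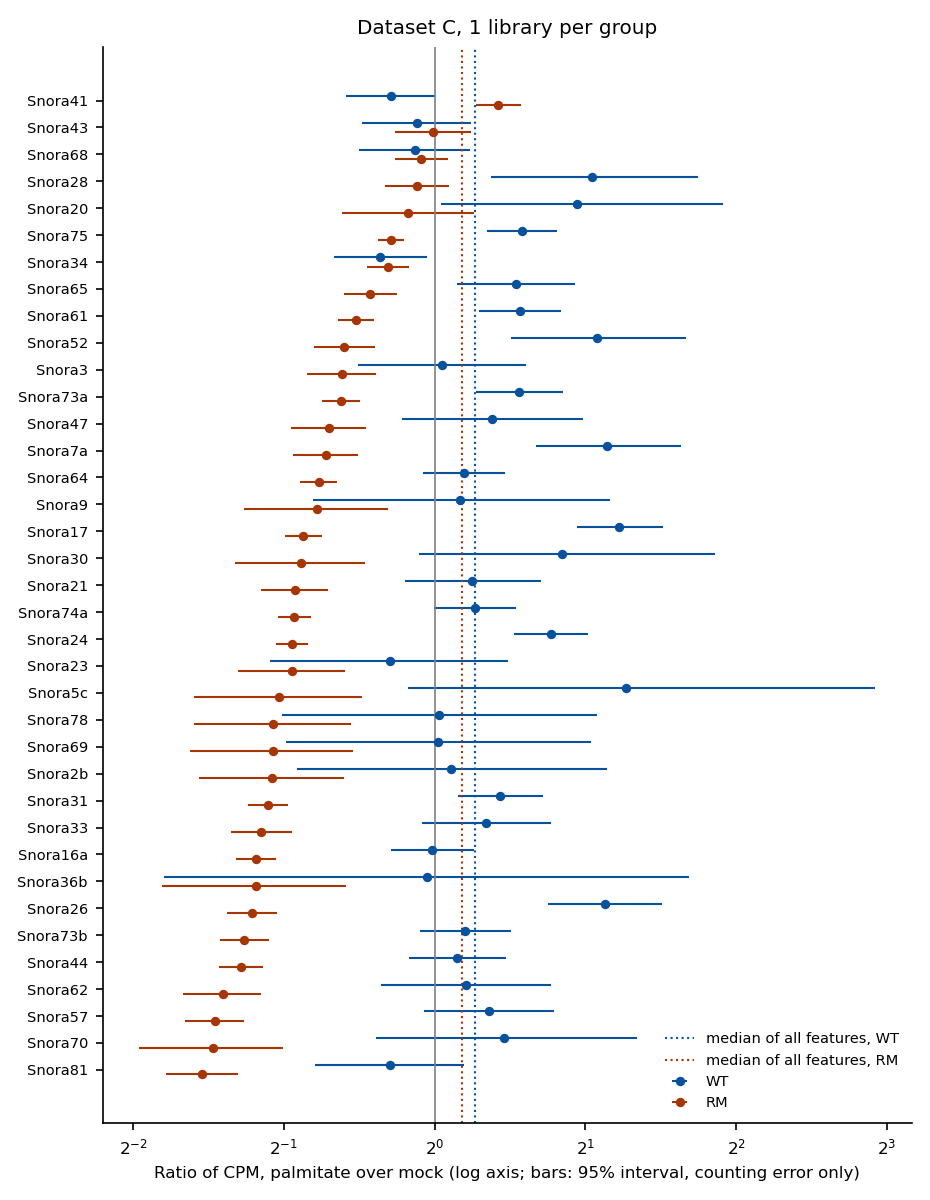
Palmitate to mock ratios of CPM in dataset C are drawn for 37 members in WT and RM cells, with 95% intervals for counting error, and dotted lines mark the medians of all features, 1.21 in WT and 1.14 in RM. RM ratios lie below 1 for every member but Snora41, while the WT median is 1.20.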

How the data were processed

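RNA that precipitated with PKR was sequenced from MEFs, and the authors deposited whole-number counts per feature for 30210 features with mm9 coordinates in datasets A, B and C, per the file headers. The submitters' processing notes name CASAVA 1.7.0 and 1.8.2, Novoalign and mm9. The counting program, its treatment of reads that match several places and the strand used for datasets A and B are unknown, since the sources used here do not give them. The 32 count columns that match a sample's labels were used, and 52 other per-sample columns were not.

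Members were found through GENCODE M21 names, which matched 25755 of 29777 Ensembl identifiers. GENCODE (GRCm38) also gave sequences and the intron or exon position within host transcripts, and the tables' own mm9 intervals gave the hosts whose counts were read. Of 40 Snora symbols in GENCODE 38 are in the tables. Members and lists were chosen with earlier results of these data known, and the grouping by class of host was made after the values were seen.

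Counts were filtered by filterByExpr, scaled by TMM and fitted with edgeR 4.0.16 (quasi-likelihood, robust, R 4.3.3), with p-values adjusted by Benjamini and Hochberg over 11328 (A), 12466 (B) or 12683 features (A and B together) at a threshold of 0.05. Each dataset was fitted over its 12 libraries with 4 group means, and both together over 24. The p-values measure the spread between the libraries labelled as replicates. On simulated counts with changes in the WT palmitate comparison, log2 changes of 1 were recovered for 52% of features in A (of 11211 features) and 59% in B (of 12382), and changes of 2 for 98% and 99%. The simulation gave every feature of both datasets the same spread and placed changes only on well-counted features. These shares therefore do not give the power for the members, nor compare A with B. Replicates of a group differed by more than sampling noise, with a chi-square per degree of freedom of at least 4.85. CPM are after TMM scaling, with SD over 3 libraries. Dataset C was read as CPM of total counts, both strands summed, over features averaging 10 counts or more, with 95% exact intervals, Poisson for a level and binomial for a ratio.

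Alternatives were DESeq2 1.42.0, total counts in place of TMM, no filter, a mean of at least 10 counts, no robust estimation, a replicate block, a pseudocount of 2 in place of 0.5 for ratios, and leaving out each library. Leaving out WT mock replicate 1 of B was chosen after seeing the data for the other snoRNA classes, hosts and proteins, and where it enters only the spread. Values in every library are given for the 3 members with the smallest p in a comparison, the largest and smallest WT palmitate changes in B, members not called there, the highest per length, and Snora23, Snora64 and Snora5c. Some of these are given by their range or their fold change alone, including 4 members called in RM cells of B. The host gene of 1 member is not reported here.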

Additional observations from a re-analysis of the deposited data

How the results depend on the processing

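Of 113 counts of called members or separated pairs recomputed with another setting (single libraries left out aside), 95 stayed within 1.5 times. A count of 0 that stayed 0 was taken as unchanged. The 32 higher members of WT palmitate in B, the 28 lower members of WT against RM mock in B and the 27 higher members of WT palmitate over both datasets stayed within 1.5 times in all of these. The counts that moved were small or 0. With no filter on low counts edgeR called 12 members for WT palmitate in A, 1 for RM palmitate in A, 1 for WT against RM mock in A, 12 for WT against RM palmitate in A, 10 for the interaction in A, 3 for the interaction in B and 1 for that over both datasets. DESeq2 called 12 for RM palmitate in B, 7 for the interaction in B and 1 for that over both, beside 8.94%, 2.81% and 0.355% of all features. Total counts gave 3 for RM palmitate in B, 2 for WT against RM palmitate in B, 16 for the interaction in B and 2 for that over both, and shifted the median of all features by up to -0.41. Shares of all features called with no filter or with total counts are not given here, so these counts cannot be read as particular to the members. Without RM palmitate replicates 2 and 3 of B together, RM palmitate and WT against RM palmitate in B had 0. That fit leaves 1 RM palmitate library, assumed to vary like the other groups, so its lack of calls says nothing about stability. The cause was not tested.

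Same-numbered libraries did not deviate together throughout, with correlations from -0.22 to 0.32 in A and from -0.13 to 0.27 in B. Differently numbered libraries ranged from -0.30 to 0.27 in A and from -0.22 to 0.22 in B. In B, WT palmitate replicate 1 was at 0.23 with RM mock replicate 1 and 0.27 with RM palmitate replicate 1, but at -0.13 with WT mock replicate 1. The numbers were not taken as pairs in the main fit, and pairing within part of the groups was not excluded. With a replicate block 12 members were called for RM palmitate in B and 6 for the interaction in B, beside 7 and 0 in the main fit. Shares of all features called in the block fit are not given here.

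Leaving out each library of the groups compared in turn, and WT mock replicate 1 of B also where it enters only the spread, gave 0 to 1 members for WT palmitate in A, 0 to 1 for WT against RM palmitate in A, 1 to 18 for RM palmitate in B, 0 to 9 for WT against RM palmitate in B, 0 to 2 for the interaction in B, 0 to 1 for the RM change of B less that of A, and 1 to 15 of 30 pairs with a separate member to host ratio in A. The other counts stayed within 1.5 times, at 26 to 33 for WT palmitate in B, 23 to 30 for WT against RM mock in B and 18 to 33 for WT palmitate over both datasets.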
